A study of Mus musculus with 9 samples.

Results

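The Hox genes encode homeodomain transcription factors that lie in 4 clusters, named A to D. The measured members were every array probe, control probes aside, whose gene name was Hox, a cluster letter and a paralog number. They came to 38 genes and 49 probes, of 27669 genes and 41174 probes in all. The mouse gene table used for naming holds 39 Hox genes, and Hoxc11 was not analysed here. Cluster A gave 11 genes, B 10, C 8 and D 9.

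RNA was measured on 9 two-colour Agilent arrays. Cells were taken straight from the prostates of BL6 mice, stained with antibodies and separated by FACS, a sorter that reads fluorescence cell by cell. The 3 marker-positive arrays hold lineage-negative cells carrying CD44, CD133, Sca-1 and CD117, which the labels call stem cells. The 6 marker-negative arrays hold lineage-negative cells without those 4 surface proteins, called non-stem cells. The labels name no mutation, transgene, treatment or age for either group, and the sort gates are the only stated difference. The amplified sample RNA carried Cy5, and a common pool of mouse RNA, the Universal Mouse Reference, carried Cy3 on every array. Every array of a group has the same sample description, and the labels do not tell whether separate animals lie behind them. The p-values therefore rest on array-to-array spread that could be technical only.

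Hox genes are switched on in the embryo in the order in which they lie along the chromosome, low paralog numbers towards the head and high numbers towards the tail, and adult cells often keep part of that pattern as a record of position. The prostate buds from the urogenital sinus at the tail end, where paralogs with the highest numbers act: in the mouse, Hoxa13 and Hoxd13 are needed for normal growth and branching of the accessory sex glands, and Hoxb13 for secretory luminal cells of the ventral lobe. Hox proteins bind DNA together with cofactors of the Pbx, Meis and Pknox families. Polycomb proteins keep silent parts of the clusters closed, Trithorax proteins keep active parts open, and retinoic acid and Cdx factors switch the genes on in the embryo.

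A value here is a log2 ratio of Cy5 to Cy3, the sample against the reference for the same probe, so levels of different genes are not compared. Since the dyes were never swapped, a ratio against 0 also holds any dye difference. Differences subtract the marker-negative mean from the marker-positive mean of those ratios and carry the standard error (SE) of limma's moderated test, and an adjusted p under 0.05 over all tested probes counts as a call. A probe was tested when its Cy5 signal was well above background on at least 3 arrays, and the tested probe with the highest mean intensity stands for its gene. In sorted bulk RNA, fewer cells that express a gene and less RNA per cell cannot be told apart.

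The upstream sequence of 4 Hox genes that the results below turn on is shown. It makes plain how unlike the upstream stretches listed for Hox genes can be in CpG dinucleotides. These are the sites of DNA methylation in mammals and a feature of promoters held by Polycomb proteins. Each run is the 250 bases before the RefSeq transcript start, 5′ to 3′, with every CG in capitals.
Hoxa9, GRCm38.p6 chr6:52227371-52227620, minus strand: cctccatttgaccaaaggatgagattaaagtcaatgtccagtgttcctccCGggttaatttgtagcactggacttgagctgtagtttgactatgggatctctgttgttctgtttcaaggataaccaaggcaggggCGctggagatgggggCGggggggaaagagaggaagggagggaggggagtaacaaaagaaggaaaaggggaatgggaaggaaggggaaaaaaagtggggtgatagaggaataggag
Hoxa3, GRCm38.p6 chr6:52213068-52213317, minus strand: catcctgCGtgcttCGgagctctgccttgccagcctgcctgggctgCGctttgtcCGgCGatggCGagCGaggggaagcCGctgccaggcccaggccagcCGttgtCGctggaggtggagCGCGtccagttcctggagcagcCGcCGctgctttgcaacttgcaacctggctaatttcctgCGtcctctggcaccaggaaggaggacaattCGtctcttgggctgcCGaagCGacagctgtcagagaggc
Hoxa5, GRCm38.p6 chr6:52204588-52204837, minus strand: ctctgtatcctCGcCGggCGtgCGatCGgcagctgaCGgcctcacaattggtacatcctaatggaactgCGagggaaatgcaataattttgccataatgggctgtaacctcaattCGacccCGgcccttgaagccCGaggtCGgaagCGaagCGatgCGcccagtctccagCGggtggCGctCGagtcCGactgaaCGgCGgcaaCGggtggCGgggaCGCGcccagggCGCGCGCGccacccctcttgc
Hoxd13, GRCm38.p6 chr2:74667975-74668224, plus strand: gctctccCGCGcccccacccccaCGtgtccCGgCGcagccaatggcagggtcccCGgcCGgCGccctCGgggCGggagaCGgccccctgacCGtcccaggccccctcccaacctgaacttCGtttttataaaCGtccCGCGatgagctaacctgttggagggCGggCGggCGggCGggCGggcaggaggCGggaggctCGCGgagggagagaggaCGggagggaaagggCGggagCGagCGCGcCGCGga
The Hoxa9 window holds 3 CG dinucleotides, that of Hoxa3 18, that of Hoxa5 28 and that of Hoxd13 31. Such a count depends on the transcript start listed: the 2 windows of Hoxd11 hold 2 and 20, and those of Hoxa10 20 and 7. The window listed for Hoxa3 lies between those of Hoxa6 and Hoxa7, away from the coding part of the gene. Windows were listed for 22 of the 38 Hox genes, 24 windows in all, and Hoxb13 had none. Cluster A gave 10 of the windows, B 3, C 1 and D 10. Their median GC content was 58.6%, against 52.4% over 32851 windows of all genes, and their median number of CG dinucleotides was 12.5 against 6.0. On either strand, the Hox and Pbx composite letters TGATTNAT occurred in 2 of the 24 windows (8.33%, against 2.82% of all windows), and the posterior Hox letters CCAATAAA in 0 (against 1.02%). TGACAG, the Meis core, was found in 2 windows (8.33% against 15.9%), AGAACA, the androgen receptor half-site, in 2 (8.33% against 16.1%), and TATAAA in 4 (16.7% against 12.4%). None of these motifs contains another, and a match is a description of sequence, not a binding site.

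Hox RNA was read on fewer arrays than that of the median gene, at a median of 6.5 against 8 of the 9 arrays. Cy5 was well above background on all 9 arrays for 9 of the 38 genes, against 43.9% of all genes, and on at least 3 arrays for 29 of 38, against 71.7%. Among the 9 genes that were not tested, Hoxb1, Hoxc5, Hoxc8 and Hoxd1 were well above background in Cy5 on no array. The log2 ratios of these 9 lay between -2.47 (Hoxc10) and 0.44 (Hoxb8). By paralog number, 4 of 8 genes of paralogs 1 to 3 were tested, 12 of 15 of paralogs 4 to 8 and 13 of 15 of paralogs 9 to 13. By cluster, 9 of 11 genes were tested in A, 8 of 10 in B, 4 of 8 in C and 8 of 9 in D. The reference pool held RNA of most of them, since Cy3 was well above background on all 9 arrays for 29 of 38.

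The arrays differed in how many Hox genes they read. Marker-positive arrays 1, 2 and 3 showed 27, 29 and 10 Hox genes in Cy5, and the marker-negative arrays between 18 and 32. Over all probes, the share well above background in Cy5 was 67.3%, 69.3% and 45.5% on the marker-positive arrays and 47.5% to 69.5% on the marker-negative arrays. Marker-positive array 3 was thus lowest on both counts, with marker-negative array 3 next. The part of detection in the Hox differences was not tested. Of the 4 sort markers, 3 had higher RNA in the marker-positive arrays by limma: the Sca-1 gene Ly6a by 3.93 (SE 0.65, adjusted p = 0.0132), the CD117 gene Kit by 3.45 (SE 0.78, adjusted p = 0.0460) and Cd44 by 2.06 (SE 0.36, adjusted p = 0.0166). For Prom1, the CD133 gene, the difference was -0.44 (SE 0.64, adjusted p = 0.766).

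**Figure D1:**
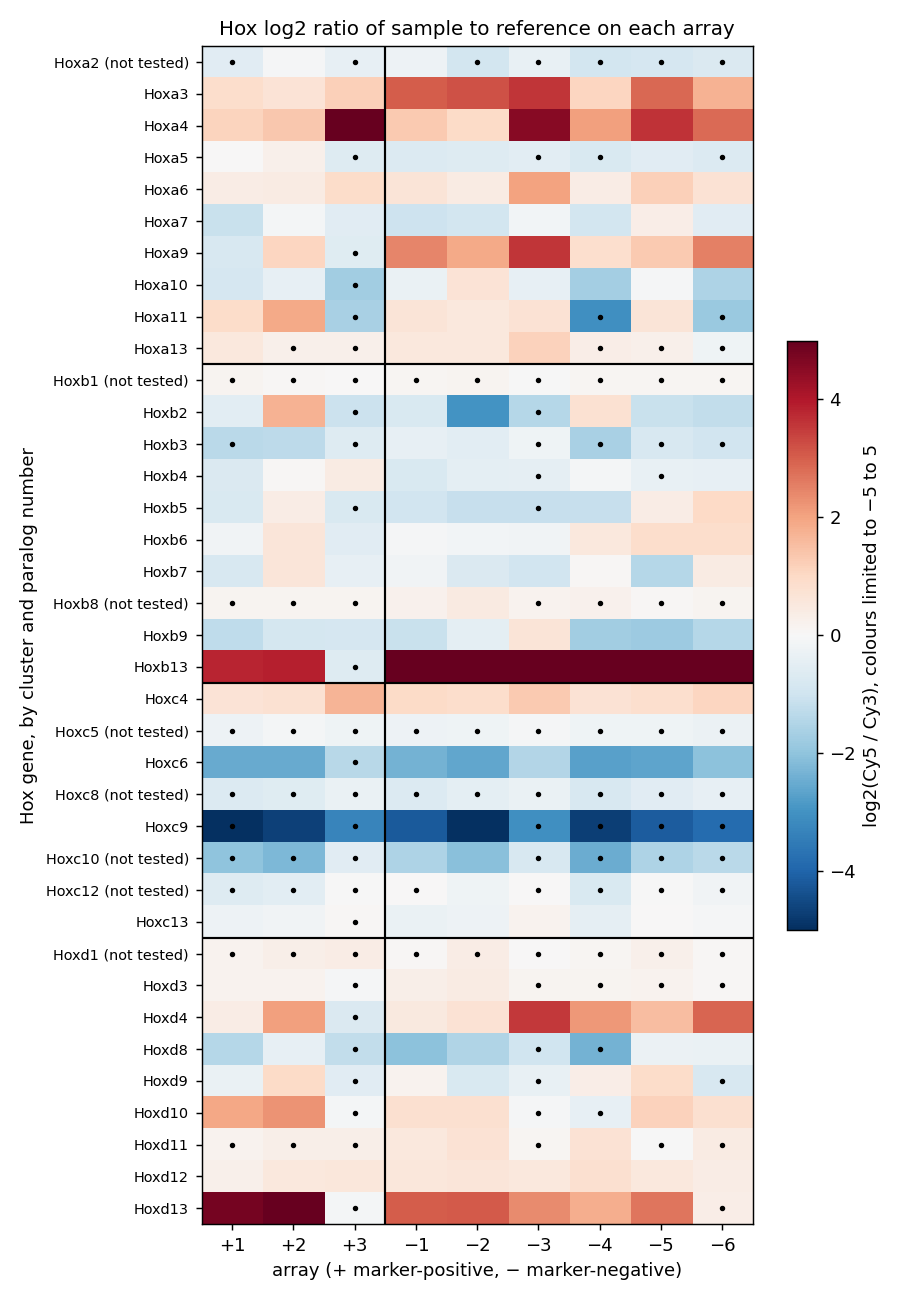
Log2 ratio of sample (Cy5) to reference (Cy3) for the Hox genes drawn (rows, by cluster and paralog number) on the 9 arrays (columns, + for marker-positive and − for marker-negative); red is above the reference, blue below, and a dot marks a Cy5 signal not well above background. The Hoxb13 row is the reddest and the Hoxc9 row the bluest, and marker-positive array 3 carries dots for 27 of them.

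Set against the reference, some Hox genes stood on 1 side on every array. Of the 29 tested Hox genes, 5 had a ratio above 0 on all 9 arrays (28.2% of all genes did) and 4 a ratio below 0 on all 9 (17.6% of all genes). Whether these counts differ from the shares of all genes was not tested. The 5 were Hoxa3, Hoxa4, Hoxa6, Hoxc4 and Hoxd12, and the 4 were Hoxb3, Hoxc6, Hoxc9 and Hoxd8. For Hoxb3, Cy5 was well above background on 1 of 3 marker-positive and 2 of 6 marker-negative arrays. Its ratios thus mostly set background against the reference. Hoxb13 had the highest mean ratio of the tested Hox genes in the marker-negative group, 5.78 ± 0.36 (SD, n = 6), which was number 63 from the top among 19849 genes. Hoxc9, which acts in the thoracic region of the embryo, had the lowest, -4.18 ± 0.71 (SD, n = 6), with Cy5 well above background on 2 of those 6 arrays, so that this ratio mostly sets background against the reference. Cluster C was split, with Hoxc6 and Hoxc9 below the reference, Hoxc4 above it and Hoxc13 near 0. The median ratio of its 4 tested genes was -1.38, -1.34 and -0.67 on the marker-positive arrays and between -1.57 and -0.64 on the marker-negative arrays. The medians of clusters A and D lay mostly above 0, between -0.57 and 1.17 for A and between -0.10 and 0.74 for D.

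Between the sorted groups, none of the 29 tested Hox genes passed the test. The count of 0 of 29 calls by limma compares with 643 of 19849 genes, or 3.24%, over the whole array. At an unadjusted p under 0.05 there were 4, Hoxa3, Hoxa9 and Hoxb13 with negative differences and Hoxa5 with a positive one, against 19.5% of all genes. That number depends on the probe rule, and it was 5 when the tested probes of each gene were averaged. Hoxb13 was the 1 gene whose groups were fully apart, which held for 11.6% of all genes (6.47% with the marker-positive arrays below). Differences were positive for 13 genes and negative for 16, with a median of -0.06, and the median over all genes was -0.01. By region, the median difference was -0.23 for paralogs 1 to 3, 0.10 for paralogs 4 to 8 and -0.08 for paralogs 9 to 13.

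**Figure D2:**
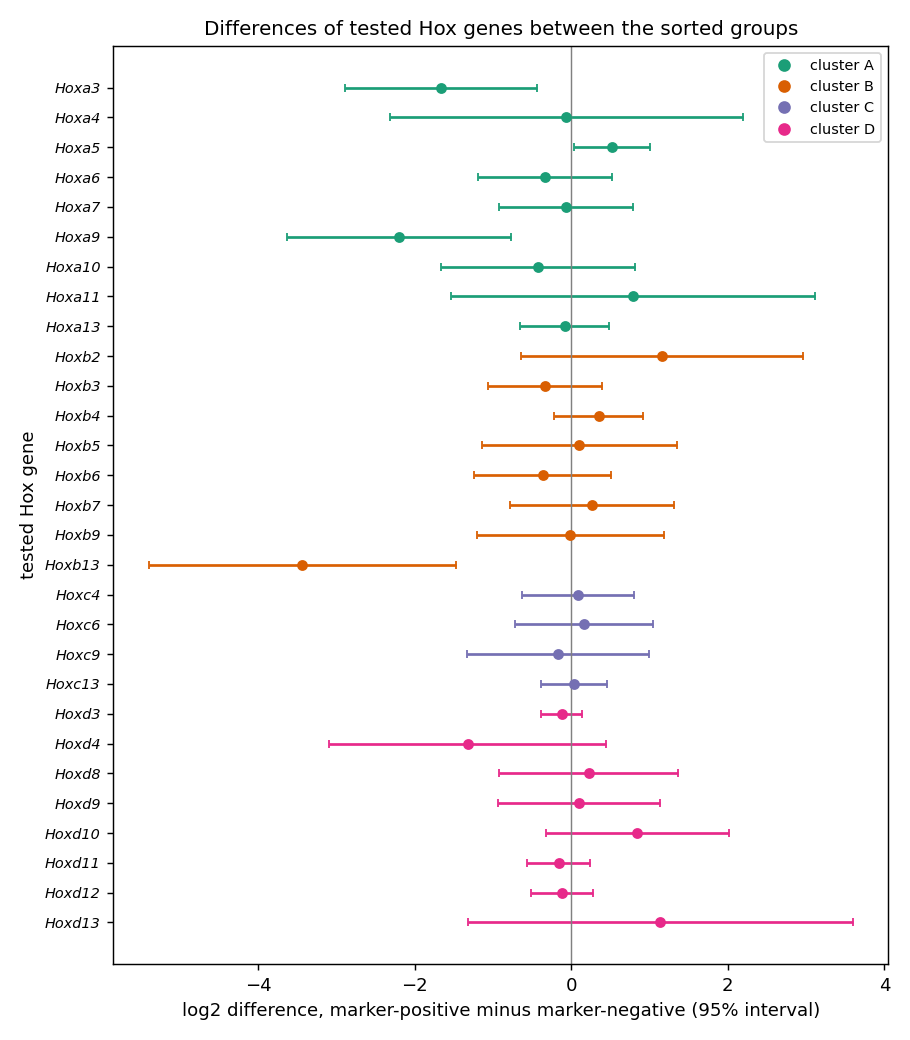
Difference in log2 ratio, marker-positive minus marker-negative, for each of the 29 tested Hox genes (points, coloured by cluster) with the 95% confidence interval of limma's fit (bars). The intervals of Hoxa3, Hoxa9 and Hoxb13 lie below 0 and that of Hoxa5 just above it, and 25 intervals span 0.

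Hoxb13 showed the widest gap between the groups. Its probe lies on chr11:96304167-96304226 of build mm7. The ratio was 3.81, 3.89 and -0.66 on marker-positive arrays 1, 2 and 3, the last not well above background in Cy5, and 5.25 at the lowest, 5.83 at the median and 6.14 at the highest on the marker-negative arrays. Every marker-positive array lay below every marker-negative one. The difference was -3.44 (SE 0.88, 95% interval -5.40 to -1.47), and it missed the threshold with an adjusted p of 0.0667 by limma. Without array 3 the difference was -1.93 with an adjusted p of 0.0108, which is a call. Within slide 1 the marker-positive array was lower by a difference of -2.09, and within slide 2 by -1.81.

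Luminal epithelial genes moved with Hoxb13 across the arrays. The mean log2 ratio of 10 luminal marker genes, among them the keratins Krt8 and Krt18 and the androgen-dependent secretory gene Pbsn, was 2.90, 3.003 and 1.19 on the marker-positive arrays and 3.62 to 4.93 on the marker-negative arrays, and 4 of the 10 genes were called lower in the marker-positive group by limma (1.67% of all genes were). The marker-positive array with the lowest Hoxb13 was also lowest in the luminal genes, and the groups did not overlap in either measure. That array, number 3, was also lowest of the marker-positive arrays in fibroblast, smooth muscle, endothelial and basal means (-2.96, -1.25, 0.81 and 0.45). The same held for proximal duct, blood stem cell and neural genes, but not for lymphocyte, mast cell, macrophage or seminal vesicle genes. Its low value was thus not particular to luminal genes. Other cell types differed too: the mean of 9 lymphocyte genes was 0.16 to 1.62 in the marker-positive and 2.78 to 5.40 in the marker-negative group (6 of 9 called lower), that of 8 mast cell genes 3.38 to 3.97 against 0.18 to 2.47 (4 of 8 called higher, against 1.57% of all genes), and that of 9 macrophage genes 3.98 to 4.999 against 0.35 to 3.03 (3 of 9 called higher). The part of these cell types in the Hox values was not tested.

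**Figure D3:**
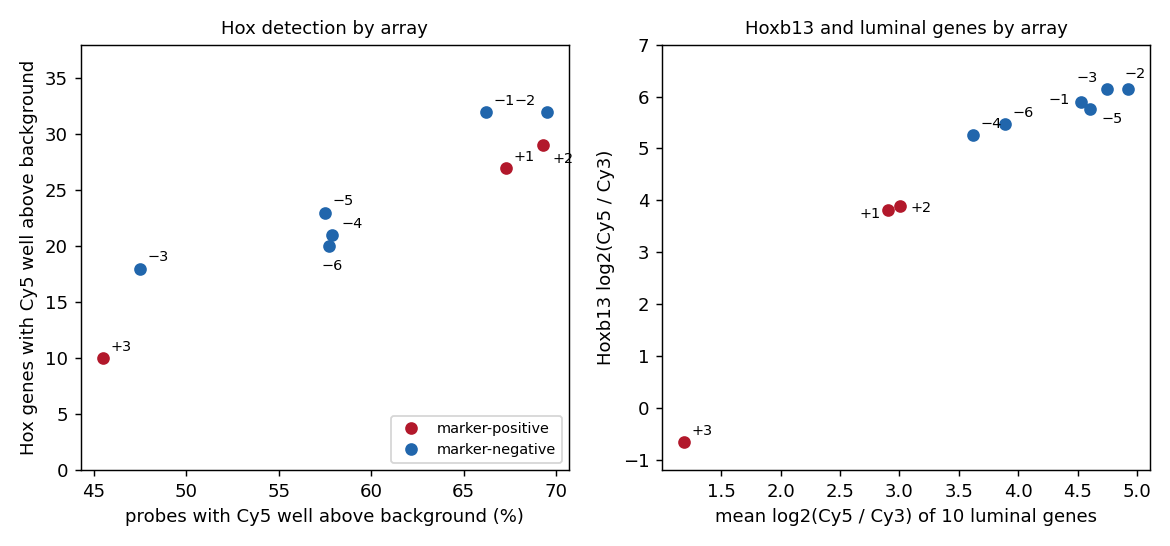
Left, the number of Hox genes (of 38) with Cy5 well above background against the percentage of all probes so detected; right, the Hoxb13 log2 ratio against the mean log2 ratio of 10 luminal genes; each point is 1 array, red for marker-positive and blue for marker-negative, labelled with its number. Marker-positive array 3 sits lowest in both panels, with 10 Hox genes and a Hoxb13 ratio of -0.66.

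The other paralogs numbered 13 showed no such gap. Hoxd13, at chr2:74514907-74514966 of mm7, had ratios of 4.79, 5.36 and -0.09 on the marker-positive arrays and 0.34, 2.53 and 3.06 as the lowest, median and highest on the marker-negative arrays. Marker-positive arrays 1 and 2 were therefore above all 6 marker-negative arrays and array 3, not well above background in Cy5, was below all of them. The difference of 1.14 (SE 1.10) had an adjusted p of 0.626, and without array 3 it was 2.86 with an adjusted p of 0.0390. Without array 2 it was 0.14. The reference was well above background for this probe on 1 array, so its ratios are set against a reference near background. A second Hoxd13 probe, at chr2:74513664-74513723, went the other way, with 1.49, -0.06 and 0.17 on the marker-positive arrays, 0.13 to 2.81 on the marker-negative arrays and a difference of -0.94 (SE 0.58, adjusted p = 0.411). For this second probe the reference was well above background on 0 arrays. Its Cy5 was well above background on 1 of 3 marker-positive and 4 of 6 marker-negative arrays. The ratios of both probes are thus set against a reference near background, and the 2 probes give no single direction for Hoxd13.

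Hoxa13 signal was weak, well above background in Cy5 on 1 of 3 marker-positive and 3 of 6 marker-negative arrays and in Cy3 on 6 of 9. Its ratios were 0.52, 0.25 and 0.27 on the marker-positive arrays and -0.23, 0.43 and 1.17 as the lowest, median and highest on the marker-negative arrays. The groups overlapped, with a difference of -0.08 (SE 0.25, 95% interval -0.65 to 0.48). On a second Hoxa13 probe Cy5 was well above background on 4 of 6 marker-negative arrays and on 0 of 3 marker-positive ones. Its difference of -0.66 (SE 0.32, adjusted p = 0.297) is thus set against background, and the groups overlapped. The reference was well above background for this probe on 0 of 9 arrays. Hoxc13, known for its part in hair and nails, was between -0.44 and 0.18 on all 9 arrays, with a difference of 0.03 (SE 0.19).

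Hoxa9 and Hoxa3 had the next smallest p-values. Hoxa9, a factor of blood stem cells and of mammalian leukaemias, had ratios of -0.80, 1.07 and -0.61 on the marker-positive arrays and 0.83, 2.15 and 3.58 as the lowest, median and highest on the marker-negative arrays. Its probe lies at chr6:52187639-52187698 of mm7. Marker-positive array 2 lay inside the marker-negative range and arrays 1 and 3 below it, array 3 not well above background in Cy5. The difference was -2.20 (SE 0.64, 95% interval -3.63 to -0.78, adjusted p = 0.0963). Within slide 1 it was -3.22 and within slide 2 -0.28.

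Hoxa3, needed in the mouse for the thymus and parathyroid, was read in Cy5 on all 9 arrays. At chr6:52133666-52133725, its ratios were 0.89, 0.69 and 1.19 on the marker-positive arrays and 1.06, 2.96 and 3.59 as the lowest, median and highest on the marker-negative arrays. Marker-negative array 4 alone lay in the marker-positive range. With a difference of -1.66 (SE 0.55), Hoxa3 had an adjusted p of 0.134, and leaving out marker-negative array 4 brought it to -1.97 with an adjusted p of 0.0442. Without marker-positive array 3 the difference was -1.79 with an adjusted p of 0.141. The second Hoxa3 probe, at chr6:52133000-52133059, was well above background in Cy5 on 2 arrays and was not tested.

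Hoxa5 was the one gene with a positive difference at an unadjusted p under 0.05. Known for its part in the lung and the mammary gland, it gave ratios of 0.02, 0.27 and -0.65 on the marker-positive arrays and -0.78, -0.65 and -0.53 as the lowest, median and highest on the marker-negative arrays. Arrays 1 and 2 lay above the whole marker-negative group, and array 3, not well above background, inside it. The difference was 0.52 (SE 0.22, adjusted p = 0.221), 0.79 with an adjusted p of 0.0363 without array 3, and 0.33 without array 2. Signal was weak, since 3 of the 6 marker-negative arrays were well above background.

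**Figure D4:**
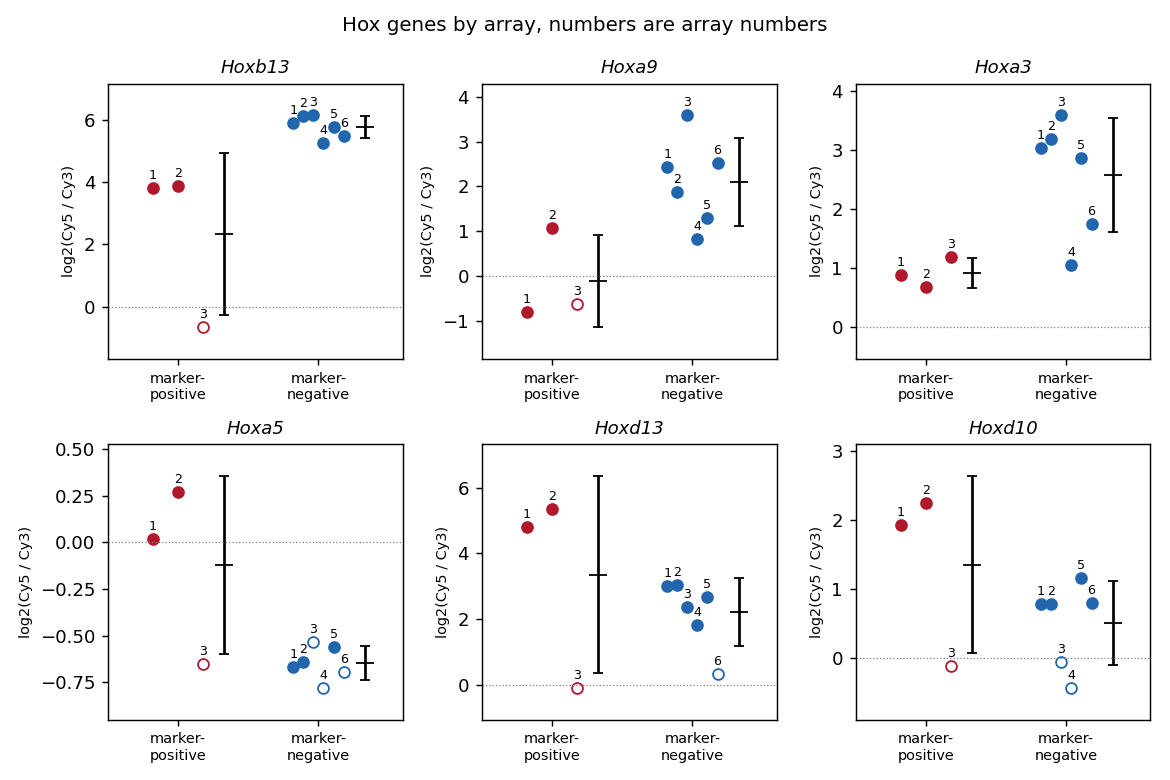
Log2 ratio of sample to reference on every array for 6 Hox genes (panels), marker-positive in red and marker-negative in blue, numbered by array; open circles were not well above background in Cy5, and the black bar is the group's mean ± SD. Hoxb13 is the one panel in which the groups do not overlap, and marker-positive array 3 is open in every panel but that of Hoxa3.

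The rest of cluster A showed no gap between the groups. Hoxa4 ran from 0.95 to 4.99 over the 9 arrays with marker-positive array 3 the highest, and its second probe ran from -0.40 to 0.13, so the probes disagree on its ratio. Their differences were -0.06 and 0.14. Hoxa6, Hoxa7 and Hoxa10 had differences of -0.34, -0.06 and -0.43. Hoxa11, which with Hoxa10 patterns the reproductive tract, ranged from -3.08 to 1.88 and had a difference of 0.79 (SE 1.04).

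In cluster B, Hoxb2 and Hoxb4 had the next smallest p-values after Hoxb13. Hoxb2, a hindbrain gene, had ratios of -0.53, 1.73 and -1.09 on the marker-positive arrays and -2.98, -1.16 and 0.77 as the lowest, median and highest on the marker-negative arrays. Marker-positive array 3 was not well above background. One array, marker-positive 2, stood above all others, and without it the difference of 1.16 (SE 0.81, adjusted p = 0.479) became 0.31. Hoxb4, used in the laboratory to expand blood stem cells, had ratios of -0.71, 0.06 and 0.41 on the marker-positive arrays and -0.77, -0.44 and -0.08 as the lowest, median and highest on the marker-negative arrays, a difference of 0.35 (SE 0.25, adjusted p = 0.496). Without marker-positive array 1 it was 0.67 and without array 3 0.11. The groups overlapped in both genes. Hoxb3, Hoxb5, Hoxb6, Hoxb7 and Hoxb9 had differences between -0.36 and 0.27. A second Hoxb6 probe had a difference of -1.05 (SE 0.42) with an unadjusted p of 0.0328 and an adjusted p of 0.210 by limma. Its ratios were 0.69, 0.74 and 1.47 on the marker-positive arrays and 1.36 to 3.12 on the marker-negative arrays.

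In cluster C the differences of the 4 tested genes lay between -0.17 and 0.17. The 3 genes with the smallest p-values were Hoxc6, Hoxc9 and Hoxc4. Hoxc9, at chr15:102970460-102970519, had ratios of -5.09, -4.67 and -3.30 on the marker-positive arrays and -5.13, -4.18 and -3.08 as the lowest, median and highest on the marker-negative arrays, and Cy5 was well above background on 3 of the 9. Its difference was -0.17 (SE 0.52, 95% interval -1.33 to 0.99). Hoxc6 showed the same kind of profile, with -2.52, -2.51 and -1.39 against -2.70, -2.48 and -1.46 and a difference of 0.17 (SE 0.39). Hoxc4, the cluster's member above the reference on all arrays, had ratios of 0.67, 0.77 and 1.72 on the marker-positive arrays against 0.71, 0.91 and 1.31, and a difference of 0.09 (SE 0.32). The 95% intervals of these 3 differences all spanned 0, that of Hoxc4, the narrowest, from -0.62 to 0.80.

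Cluster D, which shapes limbs and the urogenital tail end, had Hoxd4 and Hoxd10 as the genes with the smallest p-values. Hoxd10 resembled the first Hoxd13 probe. Its ratios were 1.93, 2.24 and -0.11 on the marker-positive arrays. On the marker-negative arrays they were -0.43, 0.78 and 1.16 as the lowest, median and highest. Again marker-positive arrays 1 and 2 were above all marker-negative arrays and array 3 was not well above background. The difference was 0.84 (SE 0.52, adjusted p = 0.418), 1.58 with an adjusted p of 0.0514 without array 3, and 0.40 without array 2. Hoxd4 had ratios of 0.37, 2.07 and -0.72 on the marker-positive arrays and 0.49, 1.86 and 3.53 as the lowest, median and highest on the marker-negative arrays. Array 3 was not well above background, the groups overlapped, and the difference was -1.32 (SE 0.79, adjusted p = 0.401). It was -2.07 without marker-positive array 2, -0.68 without array 3 and 0.61 within slide 2. Hoxd3, Hoxd8, Hoxd9, Hoxd11 and Hoxd12 had differences between -0.16 and 0.23. Hoxd11 was well above background in Cy5 on 3 of 6 marker-negative arrays and on 0 of 3 marker-positive ones, so its difference of -0.16 (SE 0.18, adjusted p = 0.685) is set against background, and the ratios of the groups overlapped.

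Where genes had more than 1 probe, the probes did not always agree. Of 11 such Hox genes, 6 had 2 tested probes, and in 3 of these (Hoxa4, Hoxd9 and Hoxd13) the differences had opposite signs. In Hoxa13, Hoxb6 and Hoxb9 both were negative, at -0.08 and -0.66, -0.36 and -1.05, and -0.01 and -0.72.

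Of the genes that work with Hox proteins or on the clusters, 62 were tested in 5 lists and limma called 0, against the 3.24% of all genes, and 12 had an unadjusted p under 0.05, a share near the 19.5% of all genes. Among the 9 cofactor genes, 4 had a positive difference at that p and none a negative one (9.72% and 9.83% of all genes), and the list's median difference was 0.80. Pknox1, a partner of Pbx proteins, had ratios of -0.56, -0.83 and -0.0078 on the marker-positive arrays and between -1.93 and -0.90 on the marker-negative arrays. The groups did not overlap, and the difference was 1.14 (SE 0.33, adjusted p = 0.0979). Meis2 had 1.17, 1.67 and -1.22 on the marker-positive arrays, the last inside the marker-negative range of -1.90 to -0.29, and a difference of 1.75 (SE 0.60, adjusted p = 0.147). It was among the 4 regulator genes called without marker-positive array 3.

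Among 12 tested upstream regulators and retinoic acid genes, 3 had a positive difference at an unadjusted p under 0.05 and none a negative one, with a median difference of 0.20. Egr2, a direct activator of Hoxb2 in the hindbrain, had ratios of 3.47, 3.88 and 4.71 on the marker-positive arrays, 2.09 to 3.07 on the marker-negative arrays and a difference of 1.19 (SE 0.32, adjusted p = 0.0803), and Rxra, a retinoid receptor, of 1.17 (SE 0.33, adjusted p = 0.0880). The groups did not overlap in either gene. Of the Polycomb list, 1 of 17 genes had a positive and 1 a negative difference at that p, and the median was -0.07. Jarid2, which helps bring the Polycomb complex to DNA, had 2.32, 1.84 and 3.46 on the marker-positive arrays against 0.27 to 1.70 and a difference of 1.45 (SE 0.41, adjusted p = 0.0879), which was 0.75 (adjusted p = 0.302) when its tested probes were averaged. Pcgf2, a subunit first known from Hox patterning in mice, had -2.10 (SE 0.85, adjusted p = 0.211). Its Cy5 was well above background on 1 of 3 marker-positive and 6 of 6 marker-negative arrays, and the groups overlapped. In the Trithorax and demethylase list the count was 1 of 13 positive and none negative, with a median of 0.15: Ash1l had 1.53 (SE 0.63, adjusted p = 0.216) and Rbbp5 -0.56 (SE 0.31, adjusted p = 0.364). Ash1l was 0.22 (adjusted p = 0.708) when its tested probes were averaged and 0.14 within slide 1.

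The other homeobox genes of the urogenital tract had 1 positive and 1 negative difference at an unadjusted p under 0.05 among 11 tested, with a median of 0.12. Isl1, a gene of the embryonic genital tubercle and of neurons, had 2.97, 3.72 and -0.26 against -0.46 to 1.26 and a difference of 1.99 (SE 0.76, adjusted p = 0.187). Without marker-positive array 3 it was 3.19 with an adjusted p of 0.00679, which is a call, and without array 2 it was 1.204. As in Hoxd10 and the first Hoxd13 probe, array 3 alone of the marker-positive arrays was low.

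The authors' deposited table gives its own comparison of stem with non-stem cells. In it Hoxb13 has a signed fold of -10.7 with an adjusted p of 0.0180 and Hoxa3 one of -3.17 with an adjusted p of 0.0299, and these 2 of the 29 Hox genes pass 0.05, against 7.57% of all genes by the same probes. The sign of all 29 Hox differences was the same there as in the present fit, and the 2 estimates were at most 0.0156 apart in log2. For Hoxa9 the authors' deposited table has a signed fold of -4.60 with an adjusted p of 0.197. The sizes were thus alike to that margin while the adjusted p-values differed.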

How the data were processed

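RNA of 9 samples was hybridised against a common reference on Agilent arrays. The deposited scanner output holds both channels' spot intensity values, a log10 ratio and well-above-background flags. Its software was Agilent Feature Extraction, version 10.7 in the submitters' processing notes and 10.7.3.1 per the file headers, which name design 014868 and grid build mm7:NCBI35:Aug2005; the log10 ratio was not used. The authors' deposited table gives log2 differences, p-values, adjusted p-values, score columns and a signed fold, whose normalization the sources used here do not give. Its log2 differences have the opposite sign to its fold of stem over non-stem and were turned.

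With limma 3.58.1 (R 4.3.3), normexp took the median local background off the mean intensities at an offset of 50, and loess normalized within arrays, with control and outlier spots at weight 0. Spots of 1 probe were averaged. Of the 41174 probes, 28332 (19849 genes) had Cy5 well above background on at least 3 arrays and were fitted with lmFit and eBayes (trend, robust) over all 9 arrays, two-sided, with Benjamini-Hochberg adjustment at 0.05. Probes were named through RefSeq accessions, symbols and synonyms, and 8440 kept the file's name. Promoter sequences are RefSeq's for GRCm38.p6, and probe coordinates are those of the scanner files.

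Arrays lie on 5 slides. Slide 1 holds marker-positive 1 and marker-negative 1, slide 2 marker-positive 2 and marker-negative 2 and 4, and no other slide holds both groups. Array numbers follow the order of deposit. Depth has no count on arrays, and their number limits the precision. All Hox probes were accounted for, with values per array for paralogs 13, for the 3 tested genes of each cluster with the smallest p and for called genes; in each list of other genes, called genes or else the 2 with the smallest p were named, and Meis2 was added after its values were seen. Some genes that this rule takes are not reported here. The Hox members and the lists were chosen with earlier results of these data known. Alternatives changed the array left out, the slide block, the probe rule, array weights, the variance model, the detection filter, the normalization or the background correction.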

Additional observations from a re-analysis of the deposited data

How the results depend on the processing

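The count of 0 Hox genes called held under the other background corrections, offset, centring, scaling, detection filters, variance model, both slide blocks and the probe mean. It was 1 with Cy5 alone (Hoxb13, -3.91), 6 with array weights (Hoxa3, Hoxa5, Hoxa9, Hoxb13, Hoxd10 and Hoxd13), which gave marker-positive array 3 the lowest weight of 0.241, and 0 to 3 with each array left out, 3 without marker-positive array 3. The count of 0 regulator genes was 1 with processed signals (Pknox1), with scaling between arrays (Egr2), with Cy5 alone (Pknox1), without trend and robust variance and with slide as a random block, 14 with array weights, and 0 to 4 with each array left out. Of 511 tested alternative values of single named genes, 470 kept sign and side of the threshold, 27 newly passed it and 14 turned sign. Of 48 within-slide values, which have no test, 43 kept their sign and 5 turned. The turned values were those of genes near 0: Hoxc9 was 0.0024 under median centring, 0.051 with Cy5 alone, 0.24 within slide 2 and -0.70 to 0.20 with each array left out (positive without marker-positive array 1 or marker-negative array 3); Hoxc4 was -0.16 with array weights, -0.14 with slide as a fixed block, -0.29 within slide 1, -0.027 within slide 2 and -0.25 (without marker-positive array 3) to 0.28 with each array left out. Hoxc6 was -0.061 with array weights, -0.17 within slide 1 and -0.21 (without marker-positive array 3) to 0.36 with each array left out. Over the same sets Hoxc13 ran from -0.052 to 0.10, negative without marker-positive array 3 or marker-negative array 1 or 4, and Hoxa13 from -0.22 to 0.064, positive without marker-negative array 3. Hoxd4, further from 0, was 0.30 with slide as a fixed block and 0.61 within slide 2. The cause was not tested. No paired analysis was possible because the array numbers only name arrays in deposit order, and the slide was the block tried instead. Signal over background limits the genes read on few arrays, above all in cluster C and on marker-positive array 3.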

Other observations

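Antisense and non-coding transcripts of the Hox clusters were on the arrays under older names. Hoxd3os1, which lies opposite Hoxd3, had 2 tested probes with differences of -0.22 (SE 0.34) and -0.19 (SE 0.22), and neither passed the test, with limma's adjusted p at 0.792 and 0.708. The probes named Hoxaas2 and Hoxaas3 were not well above background in Cy5 on any array.

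Genes of seminal vesicle secretion, a gland next to the prostate, were far above the reference in both sorts. The mean log2 ratio of 7 such genes was 5.19, 5.24 and 5.76 on the marker-positive arrays and 3.18 to 7.51 on the marker-negative arrays, highest on marker-negative arrays 4 and 6. Fibroblast genes divided the marker-positive arrays: the mean of 11 tested genes was 1.43 and 1.45 on arrays 1 and 2 and -2.96 on array 3, against -3.25 to -0.33 on the marker-negative arrays. Basal epithelial genes split likewise, with means of 2.92, 3.45 and 0.45 on the marker-positive arrays and 0.66 to 2.499 on the marker-negative arrays. Hoxd10, Isl1 and the first Hoxd13 probe were also lowest on array 3 among the marker-positive arrays. The second Hoxd13 probe was lowest on array 2, and its Cy5 was not well above background on arrays 2 and 3. Endothelial genes had means of 2.93, 4.53 and 0.81 on the marker-positive arrays and 0.40 to 1.41 on the marker-negative arrays. The part of these cells in the Hox values was not tested.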
